A study of Homo sapiens with 27 samples.

Results

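MYC and 35 further genes of its network and of ribosome production were followed in LS174T human colorectal carcinoma cells during induced expression of Snail1 or Lef1. The 36 genes were taken by name. They are MYC, its partner MAX, the MAX-binding repressors MXD4 and MXI1, the MYC target ODC1, and 31 genes of ribosome production, called nucleolar genes here. Of these, 34 had a probe under that name on the Illumina array, and 33 (28 of the nucleolar genes) had one detected often enough to be tested, among 13510 genes in all. MYC has 2 probes, which were kept apart, so there are 34 rows for the 33 genes. Each other gene stands by the probe with the highest mean in the authors' matrix. GNL3 and WDR43 had no probe under those names. The single NPM1 probe, made to 1 of the gene's transcript forms, was detected on 1 of 27 arrays (log2 intensity 4.30 to 5.28) and was not tested.

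MYC is a transcription factor that binds DNA as a dimer with MAX, at a short element called the E-box. The MXD proteins and MXI1 also pair with MAX and repress at the same element, so they oppose MYC. Genes for nucleolar proteins are among its best known targets: RNA polymerase I makes the precursor of ribosomal RNA, small nucleolar ribonucleoproteins (snoRNPs) modify and help to cut it, and processing factors build the small and the large ribosomal subunit around it. In colorectal carcinoma cells MYC is itself a target of Wnt signalling through beta-catenin and TCF/LEF factors.

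The SNAI1 line carries a mouse Snail1 transgene with an HA tag and the LEF1 line a mouse Lef1 transgene with an HA tag, both switched on by doxycycline. The control line is labelled as having no overexpression. Doxycycline was used at 0.1 µg/ml, with fresh drug at 48 h in long treatments, and RNA of the control line was taken at the same times. The SNAI1 line gave 11 arrays (2 each at 0, 6, 48 and 96 h, 1 each at 3, 24 and 72 h), the LEF1 line 7 (2 each at 0, 6 and 72 h, 1 at 24 h) and the control line 9 (2 each at 0 and 6 h, 1 each at 3, 24, 48, 72 and 96 h). One LEF1 array titled 6 h carries 0 h in its time field and was taken as 6 h. Whether a line is a clone or a pool, and whether replicates are separate cultures, is not given in the labels, so p-values measure the spread between these arrays, which may be technical. The transgenes are mouse sequences, and no probe for them was used.

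The arrays fall into 2 sets by the form of the deposited detection p-value. Set 2 holds all 7 LEF1 arrays, control 0 h replicate 2 and control 6 h replicate 1, and set 1 the other 18 arrays, so the LEF1 line is set against a control line measured mostly in the other set. Of 12 colonic epithelial markers, all were detected on some arrays and 9 on all 27. Of 11 measured markers of other cell types, CDH5 and PECAM1 were detected on no array and ALB on all. Relative to the control line, 6 of the 12 colonic markers fell late in the SNAI1 line, beside 4.79% of all rows. CDH1 fell by 1.41 on the log2 scale. In the LEF1 line 1 marker fell, LGALS4 (log2 change -2.44), beside 0.266% of all rows. The part of this in the results below was not tested.

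The promoters of the nucleolar genes are shown first because many of them carry the E-box that MYC and MAX bind. The element searched was CACGTG, which reads the same on both strands, in 250 bases before and 50 after each start site from RefSeq (GRCh38.p14). It lies in the windows of 12 of the 26 nucleolar genes with a window (46.2%), against 2396 of all 27305 genes with one (8.77%). The share was 36.5% among other subunit factors (31 of 85) and 6.25% among cytosolic ribosomal protein genes (4 of 64). Wholly before the start site the element lies in 2 of the 26 nucleolar genes (7.69%), against 2110 of all genes (7.73%), so the higher share comes from elements at or after the start. These shares describe letters in a window, not binding. Below, 60 bases before and 30 after the start are printed 5′ to 3′ for 5 genes that fell in at least 1 line, 4 with the element and NOP16 without it, with the E-box in capitals.
RRP9 (chr3:51941875-51941964, minus strand): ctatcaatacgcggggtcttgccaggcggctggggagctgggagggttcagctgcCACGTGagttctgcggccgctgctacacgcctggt
FBL (chr19:39846350-39846439, minus strand): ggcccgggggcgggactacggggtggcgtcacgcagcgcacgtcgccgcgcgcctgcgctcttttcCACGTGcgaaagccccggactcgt
PES1 (chr22:30591881-30591970, minus strand): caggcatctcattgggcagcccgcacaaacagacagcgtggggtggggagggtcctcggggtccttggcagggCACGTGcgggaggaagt
MRTO4 (chr1:19251745-19251834, plus strand): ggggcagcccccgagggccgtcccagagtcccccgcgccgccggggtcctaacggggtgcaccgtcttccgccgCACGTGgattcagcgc
NOP16 (chr5:176388569-176388658, minus strand): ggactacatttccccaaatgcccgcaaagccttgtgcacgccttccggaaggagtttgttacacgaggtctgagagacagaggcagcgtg
The element starts 5 bases before the start site in RRP9 and at base 7 of the transcript in FBL, 14 in PES1 and 15 in MRTO4.

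MYC fell late in both transgenic lines, with a lower level already at 24 h, and the control line stayed near its 0 h level. Its first probe read a log2 intensity of 11.71 and 11.73 in the SNAI1 line at 0 h, 11.95 at 3 h, 11.55 and 11.55 at 6 h, 10.98 at 24 h, 10.38 and 10.56 at 48 h, 9.70 at 72 h, and 10.08 and 10.23 at 96 h. The LEF1 line gave 11.60 and 11.58 at 0 h, 11.28 and 11.37 at 6 h, 10.56 at 24 h, and 10.22 and 10.01 at 72 h. Control arrays gave 11.83 and 11.85 at 0 h, ranged from 11.52 to 11.99 over the early times, and then read 11.59, 11.63, 11.86 and 11.80 at 24, 48, 72 and 96 h. Every late array of the SNAI1 and LEF1 lines lies below every 0 h array of its own line, as for 14.8% and 16.6% of all rows. The control line's late and 0 h arrays overlap. Values of a log2 intensity are relative to the other genes of the array after quantile normalization. RNA of whole cultures was measured, so fewer cells with MYC transcripts and fewer transcripts per cell cannot be told apart.

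A change relative to the control line is the line's mean change from 0 h over the late times (24, 48, 72 and 96 h; 24 and 72 h for LEF1), less that of control cells. By this measure MYC was 2.42-fold lower in the SNAI1 line, a log2 change of -1.28 (SE 0.204; limma, Benjamini-Hochberg adjusted p = 0.00113 over all 13511 rows). It was 2.20-fold lower in the LEF1 line (-1.14, SE 0.233, adjusted p = 0.0283). Against the lines' own 0 h arrays the log2 changes were -1.40 (SE 0.141, adjusted p = 7.84e-06) in the SNAI1 line and -1.25 (SE 0.159, adjusted p = 0.000281) in the LEF1 line. The control line's own late change was -0.12 (SE 0.147, adjusted p = 1). The SNAI1 call relative to the control line was lost with 24 and 48 h alone, where the change was -0.77 (adjusted p = 0.119), and kept with 72 and 96 h alone, at -1.78 (adjusted p = 0.000148). The LEF1 call was lost in 6 of 27 fits that left out 1 array. Without the control line's 72 h array, 72 h dropped out for both lines, and the change at 24 h alone was -0.78.

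**Figure D1:**
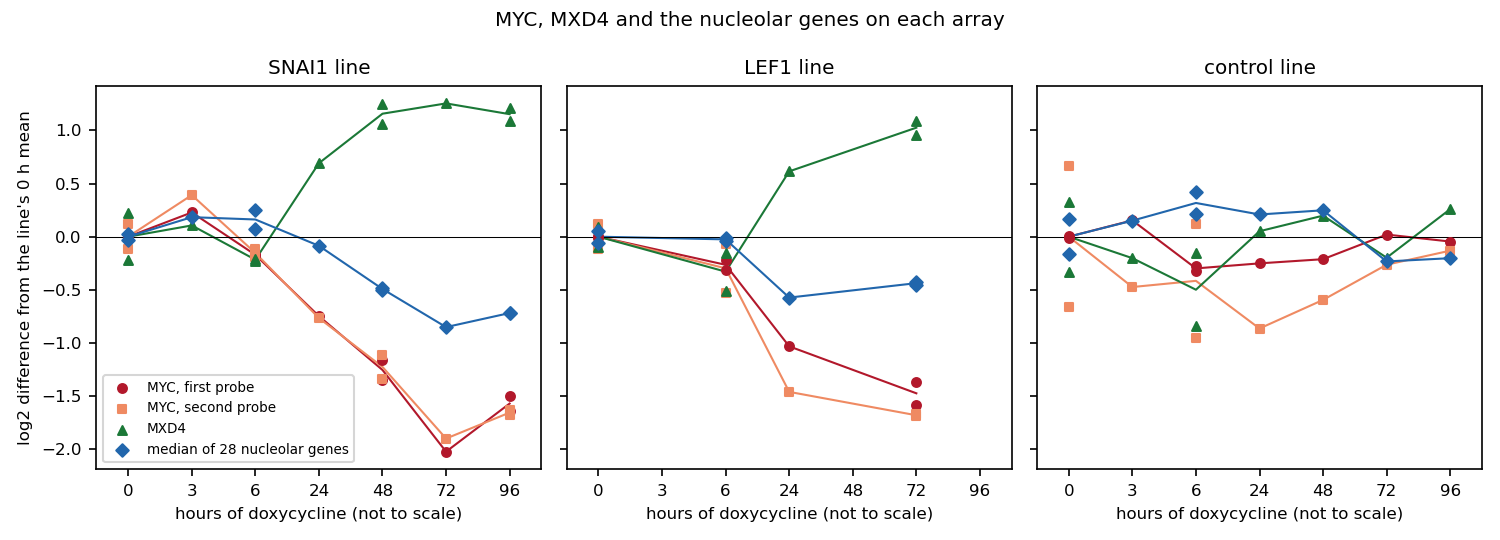
Difference from the line's 0 h mean on each array (log2, vertical) by hours of doxycycline (horizontal, not to scale) for the SNAI1, LEF1 and control lines, with 1 point per array and lines through the means at each time. Both MYC probes lie below 0 and MXD4 above 0 from 24 h on in the SNAI1 and LEF1 lines; the nucleolar median is near 0 at 24 h in the SNAI1 line and lower after that.

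The second MYC probe read from 8.58 to 9.71 on the 6 late SNAI1 arrays, with a median of 8.99, against 10.36 and 10.59 at 0 h. Late LEF1 arrays gave 10.00, 9.77 and 9.79, against 11.35 and 11.58 at 0 h. Neither pair of ranges overlaps. Late arrays all lay below 0 h arrays for 14.8% of all rows in the SNAI1 line and 16.6% in the LEF1 line. Against their own 0 h this probe fell in both lines (SNAI1 line -1.39, SE 0.314, adjusted p = 0.00597, and LEF1 line -1.57, SE 0.354, adjusted p = 0.0194). Set against control cells the changes were -0.92 (SE 0.454, adjusted p = 0.267) in the SNAI1 line and -1.01 (SE 0.519, adjusted p = 0.491) in the LEF1 line, and neither passed. The control line itself read from 10.19 to 10.92 late, between its widely spaced 0 h values of 10.39 and 11.72 or just below them. This probe read 1.33 higher on the set 2 than on the set 1 array of the control line at 0 h and 1.08 higher at 6 h, where the first probe differed by 0.02 and 0.04. With the array set as a block the second probe passed in the SNAI1 line (-1.52, adjusted p = 0.00217) and in the LEF1 line (-1.61, adjusted p = 0.013).

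MXD4, a repressor that pairs with MAX, read higher late in both lines. In the SNAI1 line it read from 10.33 to 10.89 on the 6 late arrays, with a median of 10.79, against 9.86 and 9.42 at 0 h. LEF1 arrays gave 10.38 at 24 h and 10.72 and 10.85 at 72 h, against 9.67 and 9.85 at 0 h. All late arrays of both lines lie above their 0 h arrays, as for 17.1% of all rows in the SNAI1 line and 17.9% in the LEF1 line. It rose 2.09-fold in the SNAI1 line against its own 0 h (log2 change 1.06, SE 0.224, adjusted p = 0.0037), where 10.3% of all rows were called higher; it is the only member called higher in any of the 8 comparisons. The change relative to control cells was 0.99 (SE 0.324, adjusted p = 0.0798), and it passed with the array set as a block (1.32, adjusted p = 0.00548). Corresponding LEF1 line changes were 0.82 against its own 0 h (SE 0.253, adjusted p = 0.083) and 0.89 relative to the control line (SE 0.37, adjusted p = 0.347).

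The other MAX partners did not pass in any comparison. MAX, the obligate partner, read from 6.46 to 7.19 late in the SNAI1 line, against 7.01 and 6.80 at 0 h (change against own 0 h -0.06, SE 0.285, adjusted p = 0.925). MXI1, another repressor partner of MAX, read 5.83, 6.18 and 5.98 late in the LEF1 line, below the 6.48 and 6.66 at 0 h, as for 16.6% of all rows (-0.61, SE 0.193, adjusted p = 0.0909). Its change relative to the control line was -1.10 in the LEF1 line (SE 0.283, adjusted p = 0.0871) and -0.47 in the SNAI1 line (SE 0.247, adjusted p = 0.308). Relative to the control line, 1 of 8 further MAX and MLX network genes tested fell late in the SNAI1 line, beside 4.79% of all rows. It was MLXIPL, a glucose-responsive partner of MLX (-2.20, SE 0.578, adjusted p = 0.028). None fell in the LEF1 line, beside 0.266% of all rows.

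ODC1, the rate-limiting enzyme of polyamine synthesis and a classical MYC target, fell in the SNAI1 line against its own 0 h. It read from 10.95 to 11.63 on the 6 late arrays, with a median of 11.10, against 11.89 and 12.01 at 0 h, a 1.66-fold lower level (-0.73, SE 0.234, adjusted p = 0.0401). Late LEF1 arrays gave 11.37, 11.42 and 11.17, against 11.80 and 11.20 at 0 h, and these overlap (-0.16, SE 0.264, adjusted p = 0.814). The control line's 2 arrays at 0 h lie far apart, at 11.96 and 11.03, its late arrays read 12.16, 12.03, 11.59 and 10.98 from 24 to 96 h, and relative to that line the SNAI1 change did not pass (-0.93, SE 0.338, adjusted p = 0.118).

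Across the member rows, 14 of 34 fell late in the SNAI1 line against its own 0 h, beside 9.78% of all 13511 rows. They are both MYC probes, ODC1 and 11 of the 28 nucleolar genes. Members were chosen with earlier results of these data known, so their shares beside all rows are descriptive only. The LEF1 line had 8 of 34 lower and 0 higher than at its own 0 h, beside 2.00% of all rows called lower and 3.15% called higher: both MYC probes and 6 nucleolar genes. Within array set 2 alone, 2 rows, the MYC probes, were called lower there, and with 24 and 48 h alone 2 rows, MYC and RRP9, were called lower in the SNAI1 line against 0 h. Of the 11 nucleolar calls in the SNAI1 line against 0 h, PPAN, NOP16 and RRP9 held in all 27 fits that left out 1 array. The other 8 held in 20 to 26, and the 6 of the LEF1 line in 13 to 25. Many of the arrays left out are not late or 0 h arrays of the line, so leaving them out can change only the spread. Each nucleolar call that was lost in some fit was lost without a 0 h array of its own line. Relative to the control line, 4 of 34 fell in the SNAI1 line (background 4.79% lower and 3.89% higher) and 1, MYC, in the LEF1 line (background 0.266% lower and 0.888% higher). In 3 comparisons limma called 0 of all rows and so no member: SNAI1 at its early times, LEF1 at 6 h, and the late times of control cells. At an unadjusted p under 0.05, 0, 1 and 1 of the 28 nucleolar genes and 339, 354 and 530 of all rows passed in these 3.

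More nucleolar genes read lower than were called. These genes were chosen with earlier results of these data known, so the values beside all rows are descriptive only. Their median late change was -0.53 in the SNAI1 line and -0.51 in the LEF1 line relative to the control line, each with 27 of 28 below 0. Over all rows the medians were 0.02 and -0.01, with 48.7% and 50.6% below 0. Against the lines' own 0 h the medians were -0.50 and -0.56, again with 27 of 28 below 0. Every late array lay below every 0 h array for 14 of the 28 genes in the SNAI1 line (14.8% of all rows), 17 in the LEF1 line (16.6%) and 0 in the control line (4.54%). No nucleolar gene had every late array above every 0 h array in any line. Of all rows, 17.1% did in the SNAI1 line, 17.9% in the LEF1 line and 5.53% in the control line. The LEF1 median relative to the control line ran from -0.78 without the control line's 72 h array to -0.18 without its 24 h array. In these fits only 24 h and only 72 h remained, because a time without a control array drops out for both lines. The LEF1 median was -0.37 with the array set as a block, and the SNAI1 median relative to the control line was -0.34 within array set 1. In the control line the nucleolar genes read a median of -0.33 on the set 2 array relative to the set 1 array at 0 h, and 0.09 at 6 h.

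**Figure D2:**
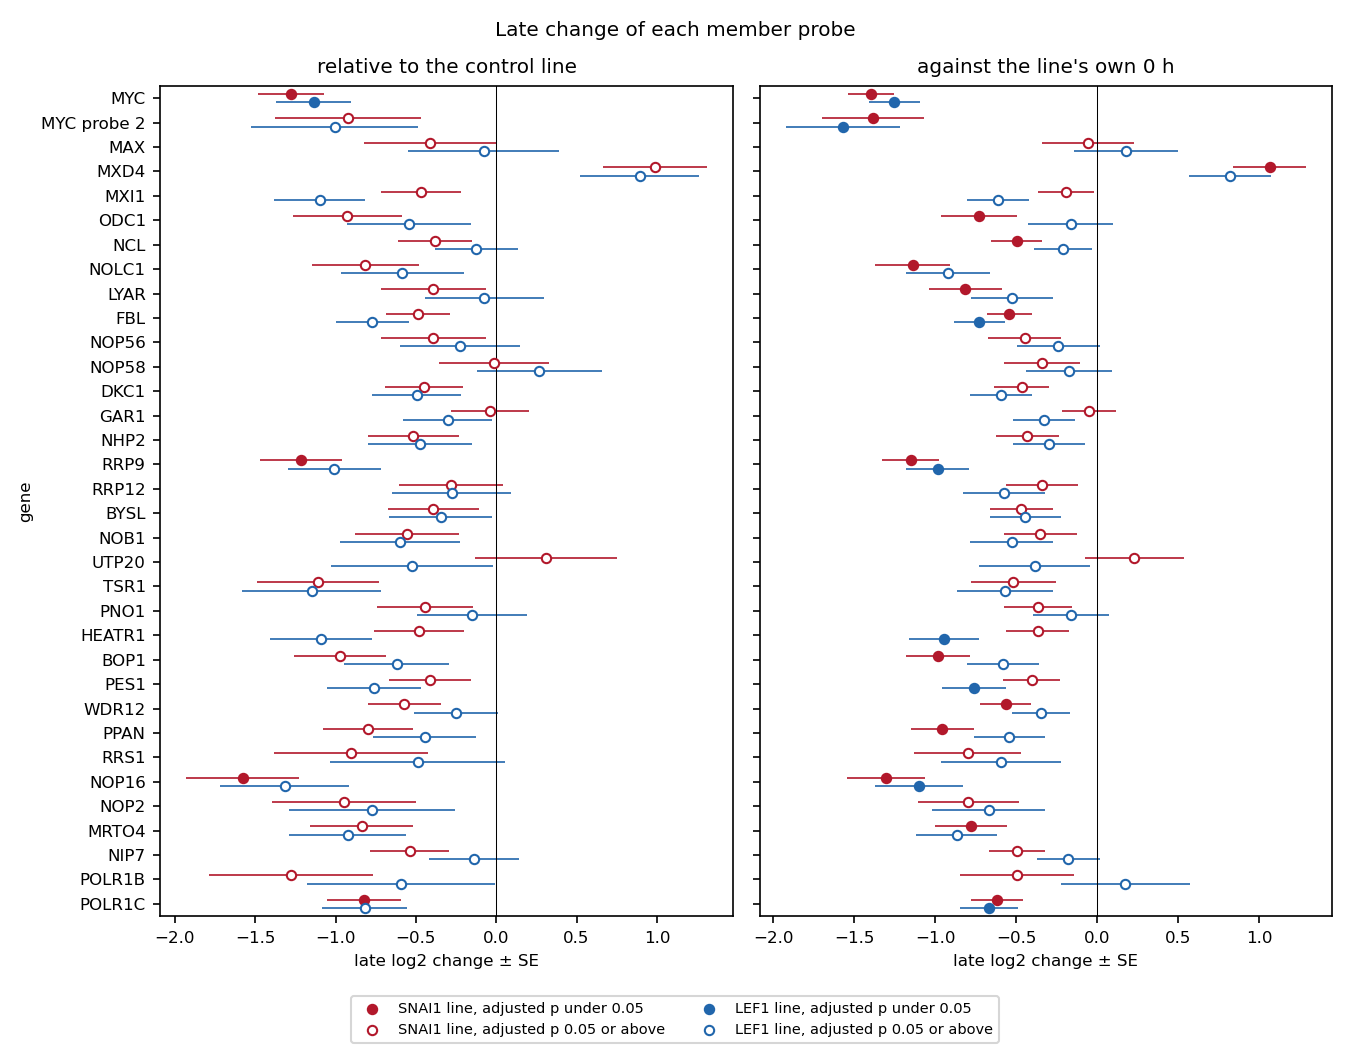
Late log2 change with its SE (horizontal) of each member row (vertical) in the SNAI1 and LEF1 lines, relative to the control line at left and against the line's own 0 h at right. Filled points have an adjusted p under 0.05; relative to the control line these are MYC, RRP9, NOP16 and POLR1C in the SNAI1 line and MYC in the LEF1 line.

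Of the abundant nucleolar proteins, 3 were tested. Against the line's own 0 h all 3 fell in the SNAI1 line, beside 9.78% of all rows. None fell in the LEF1 line, beside 2.00% of all rows. NOLC1, a phosphoprotein that shuttles between nucleolus and cytoplasm and binds snoRNPs, read from 7.57 to 8.91 late in the SNAI1 line (median 7.92), against 9.08 and 9.33 at 0 h (2.21-fold lower, adjusted p = 0.0028). Late LEF1 arrays gave 8.07, 8.05 and 7.67, below the 9.14 and 8.63 at 0 h, as for 16.6% of all rows, and did not pass (-0.92, SE 0.26, adjusted p = 0.0579). LYAR, a zinc finger protein of the nucleolus, read from 9.49 to 10.68 late in the SNAI1 line (median 9.81), against 10.81 and 10.74 at 0 h (-0.82, SE 0.225, adjusted p = 0.0192). NCL, nucleolin, read 12.69 at 24 h, 12.17 and 12.29 at 48 h, 11.74 at 72 h and 11.69 and 11.66 at 96 h there, against 12.55 and 12.61 at 0 h (-0.50, SE 0.158, adjusted p = 0.0386). The 24 h value of NCL lies above both 0 h values and the later ones below them. With the mean of its kept probes the change was -0.53 and the call was lost (adjusted p = 0.0548).

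In the control line these genes also read lower at the end of the course. NOLC1 read 9.05 and 9.06 at 24 and 48 h and 8.25 and 8.29 at 72 and 96 h, against 9.29 and 8.68 at 0 h. LYAR read 10.47, 10.69, 9.95 and 9.84 at the same 4 times, against 10.72 and 10.60. Set against control cells, the late changes in the SNAI1 line were -0.81 for NOLC1 (SE 0.334, adjusted p = 0.173), -0.39 for LYAR (SE 0.325, adjusted p = 0.553) and -0.38 for NCL (SE 0.228, adjusted p = 0.38).

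The box C/D snoRNPs methylate ribosomal RNA, with FBL, fibrillarin, as the methyltransferase and NOP56 and NOP58 as scaffold proteins. FBL fell in both lines against their own 0 h. In the SNAI1 line it read 12.26 at 24 h, 11.90 and 11.90 at 48 h, 11.16 at 72 h and 10.87 and 10.86 at 96 h, against 12.17 and 12.01 at 0 h (-0.54, SE 0.138, adjusted p = 0.0123). LEF1 arrays gave 11.74 at 24 h and 11.19 and 11.40 at 72 h, against 12.25 and 12.25 at 0 h (-0.73, SE 0.156, adjusted p = 0.0147). The control line's late arrays stayed between 11.97 and 12.25, and relative to it the changes were -0.49 (adjusted p = 0.173) in the SNAI1 line and -0.77 (adjusted p = 0.153) in the LEF1 line. With 72 and 96 h alone, FBL passed relative to the control line in the SNAI1 line (-1.01, adjusted p = 0.00884). NOP56 and NOP58 passed in neither line (SNAI1 line against own 0 h -0.45 and -0.34, adjusted p = 0.194 and 0.362).

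The box H/ACA snoRNPs turn uridines of ribosomal RNA into pseudouridine, with DKC1, dyskerin, as the enzyme and GAR1 and NHP2 as core proteins. None of the 3 passed. DKC1 read from 10.83 to 11.65 late in the SNAI1 line, against 11.70 and 11.64 at 0 h (-0.47, SE 0.168, adjusted p = 0.067), and 10.61, 10.90 and 10.72 late in the LEF1 line, against 11.40 and 11.22 (-0.60, SE 0.19, adjusted p = 0.0939). GAR1 lay nearest to 0 of the 28 nucleolar genes in the SNAI1 line against its own 0 h, with late arrays from 10.80 to 11.12 around 0 h values of 10.93 and 11.09 (-0.05, SE 0.168, adjusted p = 0.877). NHP2 had a log2 change of -0.43 (SE 0.196, adjusted p = 0.147) in the SNAI1 line.

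Among 8 tested small subunit factors, RRP9, a protein of the snoRNP that directs the first cuts of the precursor, fell in both lines. It read 6.82 at 24 h, 5.90 and 5.73 at 48 h, 5.42 at 72 h and 5.44 and 5.71 at 96 h in the SNAI1 line, against 7.07 and 7.05 at 0 h (-1.15, SE 0.175, adjusted p = 0.000292). LEF1 arrays gave 5.15 at 24 h, where the probe was not detected, and 5.85 and 5.79 at 72 h, against 6.40 and 6.54 at 0 h (-0.99, SE 0.197, adjusted p = 0.00952). Relative to the control line it was 2.32-fold lower in the SNAI1 line (-1.22, SE 0.252, adjusted p = 0.00708), and of the 3 nucleolar genes called there it alone kept its call in all 27 fits that left out 1 array. The control line's single arrays spread widely, at 7.23, 6.70, 5.87 and 6.56 from 24 to 96 h, and in the LEF1 line the change relative to it did not pass (-1.01, SE 0.288, adjusted p = 0.135).

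HEATR1, which acts in transcription by RNA polymerase I and in early processing, fell in the LEF1 line. It read 8.21 at 24 h and 8.42 and 8.51 at 72 h, against 9.01 and 9.55 at 0 h (-0.95, SE 0.218, adjusted p = 0.0218). In the SNAI1 line it read from 8.93 to 9.68 late, against 9.60 and 9.63 at 0 h (-0.37, SE 0.194, adjusted p = 0.217). Over 24 and 72 h the change in the SNAI1 line minus that in the LEF1 line was 0.64 (SE 0.32, adjusted p = 0.458), so no difference between the lines was shown.

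The other 6 small subunit factors passed in no comparison. RRP12, BYSL (bystin), NOB1, PNO1 and TSR1 had changes from -0.52 (TSR1) to -0.34 (RRP12) against 0 h in the SNAI1 line and from -0.58 (RRP12) to -0.16 (PNO1) in the LEF1 line. NOB1, the nuclease that makes the end of the small subunit RNA, read from 7.75 to 8.15 late in the SNAI1 line, below the 8.35 and 8.23 at 0 h. The same held for RRP12, BYSL and PNO1, and for 14.8% of all rows. TSR1 had the largest changes of these relative to the control line, -1.11 in the SNAI1 line (SE 0.379, adjusted p = 0.0926) and -1.15 in the LEF1 line (SE 0.433, adjusted p = 0.289), while the control line itself was at 0.59 (SE 0.274, adjusted p = 1) from 0 h arrays at 8.45 and 7.45. UTP20, a large protein of the early small subunit complex, was detected on 16 of 27 arrays and is the nucleolar gene that read higher late in the SNAI1 line (0.23, SE 0.306, adjusted p = 0.676).

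**Figure D3:**
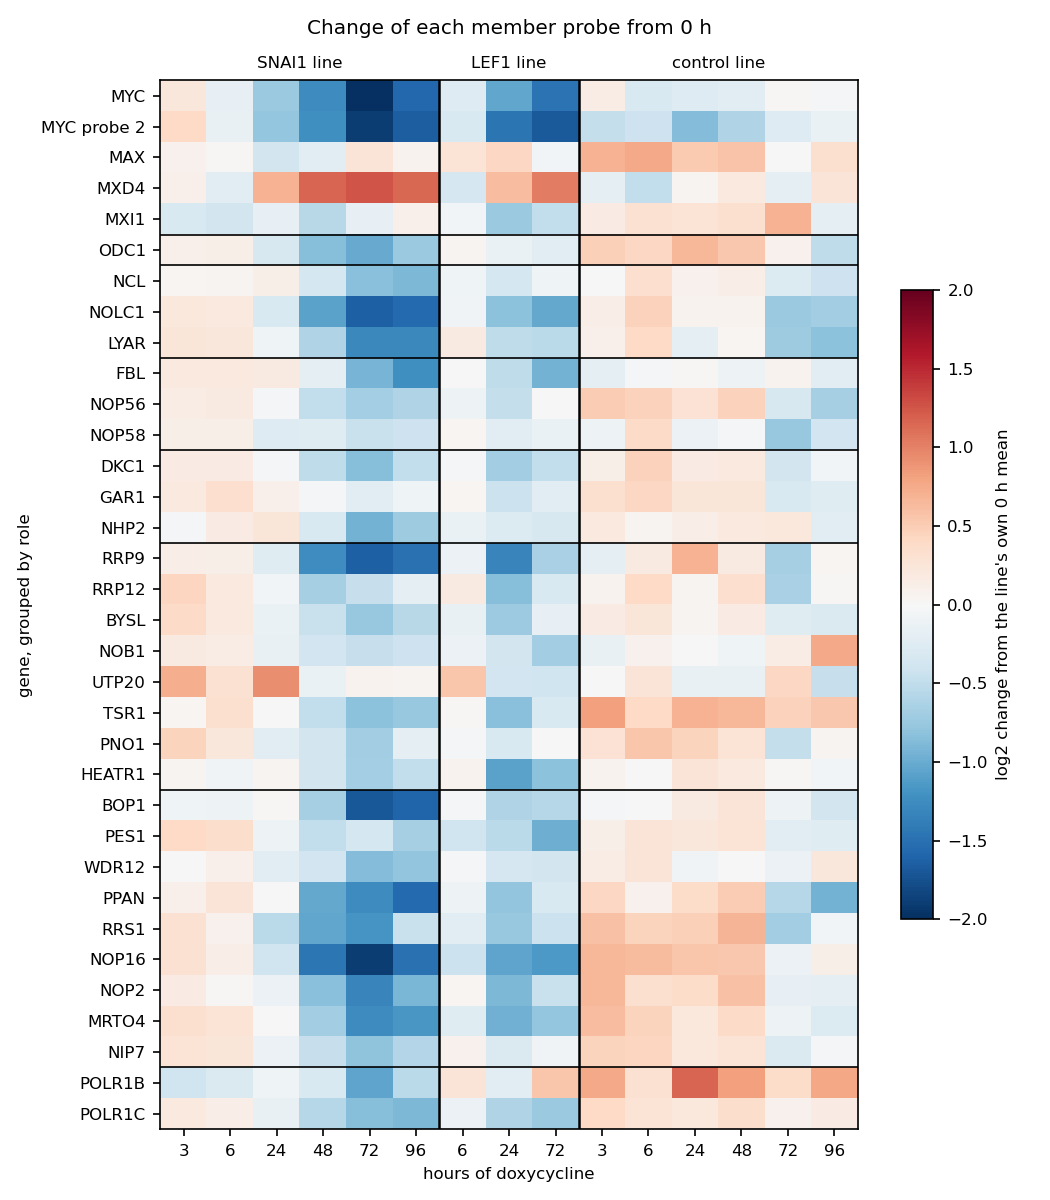
Log2 change from the line's own 0 h mean (colour) of each member row (vertical, grouped by role) at each time of the SNAI1, LEF1 and control lines (horizontal, hours). In the SNAI1 line most nucleolar genes are near 0 at 24 h and below it from 48 h, and in the LEF1 line they are below 0 at 24 h; MXD4 is above 0 at 24 h and later in both lines.

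Of the large subunit factors all 9 were tested. Against 0 h in the SNAI1 line their median was -0.80 and 5 fell. Over all rows the median was 0.03 and 9.78% were called lower. In the LEF1 line their median was -0.59 and 2 fell, beside 0.00 and 2.00% over all rows. NOP16 had the largest change of any nucleolar gene in both lines. It read 9.65 at 24 h, 8.43 and 8.80 at 48 h, 8.16 at 72 h and 8.63 and 8.50 at 96 h in the SNAI1 line, against 10.11 and 10.00 at 0 h (2.47-fold lower, -1.31, SE 0.242, adjusted p = 0.00144). LEF1 arrays gave from 7.79 to 8.01 late, against 9.18 and 8.93 at 0 h (-1.10, SE 0.273, adjusted p = 0.0317). The groups do not overlap in either line, with every late array lower, as for 14.8% of all rows in the SNAI1 line and 16.6% in the LEF1 line. A second NOP16 probe fell as well, by 1.28 on the log2 scale in the SNAI1 line (adjusted p = 0.000687 over all probes kept) and by 1.09 in the LEF1 line (adjusted p = 0.0211).

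NOP16 was, relative to the control line, 2.99-fold lower in the SNAI1 line (-1.58, SE 0.349, adjusted p = 0.0108), and its log2 change in the LEF1 line was -1.32 (SE 0.399, adjusted p = 0.162). The control line's 0 h arrays read 9.89 in set 1 and 8.88 in set 2, and without the set 2 array, or without SNAI1 0 h replicate 1, the SNAI1 call was lost (adjusted p up to 0.0587). Within set 1 alone, where that array is also left out, the change was -1.07 (adjusted p = 0.0299).

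BOP1, PES1 and WDR12 form a complex needed for the large subunit. BOP1 read 11.24 at 24 h, 10.69 and 10.43 at 48 h, 9.53 at 72 h and 9.52 and 9.73 at 96 h in the SNAI1 line, against 11.31 and 11.13 at 0 h (-0.98, SE 0.198, adjusted p = 0.00271), and WDR12 from 9.80 to 10.44, against 10.57 and 10.76 (-0.57, SE 0.159, adjusted p = 0.0209). PES1 passed in the LEF1 line instead, with 8.12, 7.75 and 7.61 late, against 8.90 and 8.43 at 0 h (-0.76, SE 0.2, adjusted p = 0.0418), a call lost in 13 of 27 fits that left out 1 array (adjusted p up to 0.294). Its change in the SNAI1 line was -0.41 (SE 0.177, adjusted p = 0.132), and the difference between the lines did not pass (0.53, SE 0.292, adjusted p = 0.521). Of the complex, none was called relative to the control line; BOP1 in the SNAI1 line lay at the threshold (-0.97, SE 0.286, adjusted p = 0.0504).

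PPAN, a maturation factor of the large subunit, fell in the SNAI1 line, with late arrays from 6.17 to 7.86 (median 6.69), against 7.87 and 7.85 at 0 h (-0.96, SE 0.194, adjusted p = 0.00282). MRTO4, which holds the place of the ribosomal stalk protein, fell there too, with late arrays from 7.95 to 9.28 (median 8.40), against 9.40 and 9.19 (-0.78, SE 0.222, adjusted p = 0.0229). For both genes, as for BOP1, the 24 h value lies between the pair of 0 h values and the later ones below them. RRS1, NOP2 and NIP7 did not pass, with changes against 0 h of -0.80, -0.80 and -0.50 in the SNAI1 line (adjusted p = 0.111, 0.0913 and 0.0547). For each of these 3 every late SNAI1 array lies below both 0 h arrays, as for 14.8% of all rows. NOP2, an RNA methyltransferase, read 11.16 and 9.49 on the control line's 0 h arrays, the widest pair among the members.

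Of the RNA polymerase I subunits, POLR1C, which RNA polymerase III also uses, fell in both lines. It read 10.70 at 24 h, 10.24 and 10.30 at 48 h, 10.00 at 72 h and 9.93 and 9.98 at 96 h in the SNAI1 line, against 10.77 and 10.94 at 0 h (-0.62, SE 0.16, adjusted p = 0.0135). Late LEF1 arrays gave 10.14, 9.96 and 10.04, against 10.73 and 10.75 at 0 h (-0.67, SE 0.18, adjusted p = 0.0473), and this call was kept in 13 of 27 fits that left out 1 array (adjusted p up to 0.196). POLR1C was 1.77-fold lower in the SNAI1 line relative to the control line (-0.82, SE 0.231, adjusted p = 0.0407), a call kept in 10 of 27 such fits. It was also lost within array set 1, where the change was -0.70, and with 24 and 48 h alone, at -0.64. POLR1B, the second largest subunit, was detected on 17 of 27 arrays and on none of the late or 0 h LEF1 arrays, and did not pass (SNAI1 line against own 0 h -0.50, SE 0.354, adjusted p = 0.378).

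**Figure D4:**
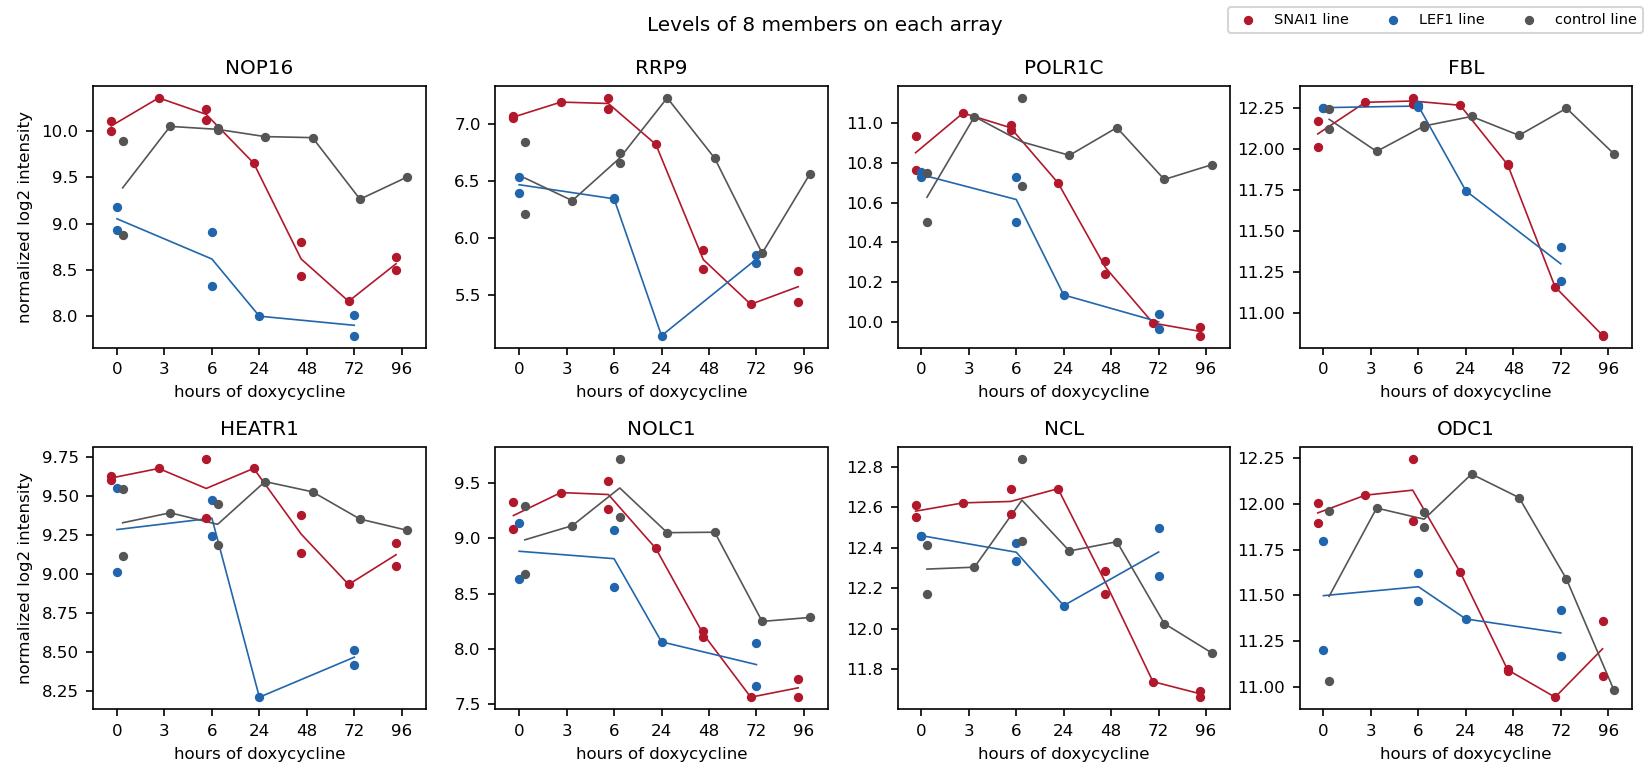
Normalized log2 intensity (vertical) by hours of doxycycline (horizontal, not to scale) for 8 members, 1 point per array and lines through the means, in the SNAI1, LEF1 and control lines. NOP16, RRP9, POLR1C, FBL and NOLC1 are lower at 72 h than at 0 h in the SNAI1 and LEF1 lines, and NOLC1 and NCL are also lower at 72 and 96 h than at 24 h in the control line.

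Against the SNAI1 line's own 0 h, MYC read lower from 24 h and the nucleolar median from 48 h. At 24 h MYC was at -0.75 relative to 0 h (SE 0.208), while the median of the 28 nucleolar genes was -0.09, with 19 below 0. At 48, 72 and 96 h MYC was at -1.25, -2.02 and -1.57, and the nucleolar median was -0.50, -0.85 and -0.69, with 28, 27 and 27 below 0. Before that, at 3 and 6 h, the median was 0.18 and 0.18. The 24 h point is 1 array, and the nucleolar median differed between replicate arrays with an SD of 0.135. No call was made at single times, so the order was not tested. At 24 h the control line's array had MYC at -0.25 and the nucleolar median at 0.21 from its 0 h. With 24 and 48 h alone, relative to the control line, limma called RRP9 lower (-1.18, adjusted p = 0.0447). MYC was not called there (-0.77, adjusted p = 0.119).

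In the LEF1 line MYC and the nucleolar median were both lower at 24 h, the first late time. MYC was at -1.03 (SE 0.208) and the nucleolar median at -0.57, with 28 of 28 below 0, on 1 array. At 72 h MYC was at -1.47 (SE 0.17) and the nucleolar median at -0.41, so the nucleolar genes read no lower at 72 h than at 24 h while MYC did. RRP9 was at -1.32 at 24 h and -0.65 at 72 h, and NOP16 at -1.05 and -1.15.

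In the control line the nucleolar genes read lower at the last times while MYC did not. Their median was 0.21 and 0.25 above 0 h at 24 and 48 h, with 4 and 5 of 28 below 0, and -0.23 and -0.20 at 72 and 96 h, with 20 and 19 below 0. MYC was at 0.02 and -0.05 (SE 0.208 each) at 72 and 96 h. Each of these times is 1 array, and none of the 28 was called late in the control line. The nucleolar median relative to the control line was -0.21 at 24 h, -0.75 at 48 h, -0.65 at 72 h and -0.54 at 96 h in the SNAI1 line. For the LEF1 line it was -0.78 at 24 h and -0.18 at 72 h, where 15 of 28 were below 0.

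The 2 transgenic lines were compared directly over 24 and 72 h, where 1.72% of all rows were lower and 1.01% higher in the SNAI1 line. No member was called (0 of 34 rows), and none of the 28 nucleolar genes had an unadjusted p under 0.05. The MYC change in the SNAI1 line minus that in the LEF1 line was -0.13 (SE 0.233, adjusted p = 0.927). The widest differences were in the thinly detected UTP20 (0.88, SE 0.505, adjusted p = 0.548) and POLR1B (-0.74, SE 0.584, adjusted p = 0.732). These comparisons do not show that the lines respond alike. At 3 and 6 h in the SNAI1 line the MYC change relative to the control line was 0.10 (SE 0.225, adjusted p = 1), and at 6 h in the LEF1 line it was 0.03 (SE 0.24, adjusted p = 1).

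Of 38 tested MYC target genes outside the nucleolus, 6 fell late in the SNAI1 line relative to the control line, beside 4.79% of all rows, and 16 against its own 0 h, beside 9.78%, with medians of -0.56 and -0.57. This list too was chosen with earlier results of these data known, and the other 32 and 22 did not pass. Those called in both include, with changes relative to the control line, TRAP1, a mitochondrial chaperone (-1.56, SE 0.271, adjusted p = 0.00208), MRPL12, a mitochondrial ribosomal protein (-1.11, SE 0.21, adjusted p = 0.00377), HK2, a hexokinase (-1.48, SE 0.333, adjusted p = 0.0118), and SHMT1, an enzyme of folate metabolism (-1.24, SE 0.294, adjusted p = 0.0161). The LEF1 line had 0 of 38 called relative to the control line and 4 against its own 0 h (TRAP1, HK2, MRPL12 and SHMT2), with a median of -0.27 there.

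Subunit factors outside the 36 were called at a share near that of all rows. Against 0 h in the SNAI1 line, where 9.78% of all rows were called lower, 6 of 48 other large subunit factors fell (12.5%, median -0.26), and 5 of 49 other small subunit and snoRNP factors (10.2%, median -0.26). Most of them still read below 0, at 39 of 48 and 43 of 49, against 46.9% of all rows. IMP4, a protein of the early small subunit complex, was the 1 of these called relative to the control line in the SNAI1 line (-0.94, SE 0.247, adjusted p = 0.028). Against 0 h in the LEF1 line, 2 of 48 large subunit factors (RRP1 and RPF2) and 1 of 49 small subunit factors (EMG1) fell, beside 2.00% of all rows. There 39 of 48 and 38 of 49 read below 0, against 49.5% of all rows. Relative to the control line, 4.79% of all rows were called lower in the SNAI1 line. Among 18 tested RNA polymerase III genes, POLR3G (-1.37, SE 0.264, adjusted p = 0.00418) and POLR3E (-0.94, SE 0.229, adjusted p = 0.019) fell there. Of 18 other RNA polymerase I genes POLR2H, a subunit shared by the 3 polymerases, did (-0.92, SE 0.229, adjusted p = 0.0219). POLR3G and POLR3E fell against 0 h in the LEF1 line too (-0.82 and -0.66). Other RNA polymerase I genes went both ways against 0 h: in the SNAI1 line 2 of 18 fell and TAF1B, a factor of promoter selection, rose (0.68, adjusted p = 0.0407), and in the LEF1 line POLR1E fell (-0.78, adjusted p = 0.0252) and POLR1D rose (0.75, adjusted p = 0.0277).

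The cytosolic ribosomal protein genes had medians close to 0 in both lines. Of 69 tested, 1 was called lower relative to the control line in the SNAI1 line, beside 4.79% of all rows. It was RPS7 (-1.55, SE 0.368, adjusted p = 0.0164). Against that line's own 0 h 4 were called lower, beside 9.78% of all rows. The medians were -0.06 and -0.02. None was called in the LEF1 line, beside 0.266% and 2.00% of all rows called lower, and the medians were 0.00 and -0.03. Of 12 reference genes tested, 1 fell late in the SNAI1 line relative to the control line, beside 4.79% of all rows. It was SDHA, a subunit of succinate dehydrogenase (-1.22, SE 0.286, adjusted p = 0.0157).

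**Figure D5:**
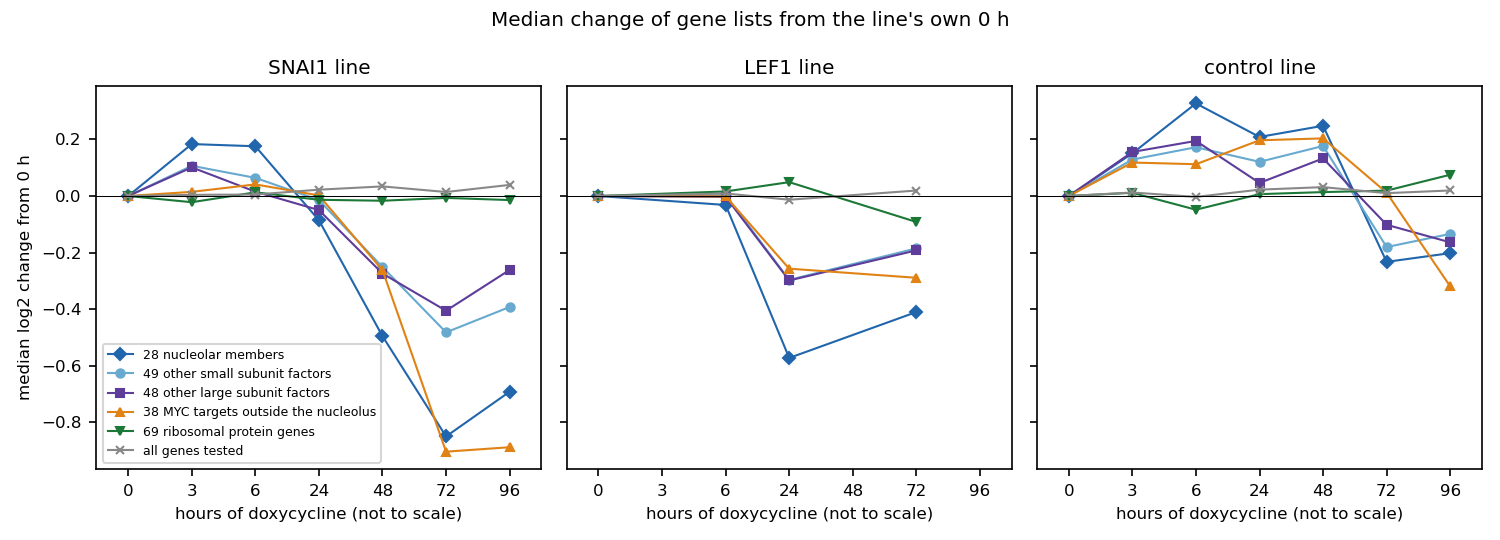
Median log2 change from the line's own 0 h (vertical) by hours of doxycycline (horizontal, not to scale) of the 28 nucleolar members and 5 comparison sets in the SNAI1, LEF1 and control lines. The nucleolar median reaches -0.85 at 72 h in the SNAI1 line, the ribosomal protein genes and all genes stay near 0, and in the control line the nucleolar median turns from above 0 at 48 h to below 0 at 72 h.

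The E-box was about as frequent in nucleolar genes called lower as in those not called. In the SNAI1 line against its own 0 h, 4 of the 9 called genes with a promoter window hold CACGTG (44.4%), and so do 6 of the 14 that were not called (42.9%). Genes not called mostly read lower too, as 27 of 28 were below 0 there, so the groups are set apart by the threshold. NOP16, the gene with the largest change, has no such element in its window. PNO1 and BYSL have one each and passed in no comparison. Their late SNAI1 arrays still all lay below 0 h, as for 14.8% of all rows. Whether the element bears on the fall was not tested.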

How the data were processed

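RNA of the 3 lines was hybridised to Illumina bead arrays, per the labels. The authors deposited log2 probe intensities from before any scaling between arrays, each with its detection p-value, per the file headers and the values, and also a quantile normalized log2 matrix. Software and genome build: not stated in labels or headers. Here normexp correction by detection p and quantile normalization used neqc (offset 16; limma 3.58.1, R 4.3.3). Of 47323 probes, 6 had missing values and were dropped; 30113 have 1 gene name, 8 several and 17202 none. Kept were 25629 probes detected at p under 0.01 on 2 or more arrays. limma (lmFit, eBayes) fitted 18 group means; the 9 groups of 1 array take their spread from the other 9 (9 residual and 4.91 prior degrees of freedom). P-values were adjusted by Benjamini-Hochberg at 5% over 13511 rows. Array number limits the precision. The text names all members and, of each other list, up to 4 genes with the lowest adjusted p late in either line. Members and lists were chosen with earlier results of these data known. The steps were tested on simulated data. Replicate numbers did not pair the arrays: over 36 pairs of groups, deviations correlated from -0.436 to 0.525, and 7 were above 0.1. Promoters are from RefSeq (GRCh38.p14). Alternatives varied the background correction, filter, probe rule, prior, array set, replicate block and control arrays, and left out each array in turn; splitting the late times was chosen after seeing the data.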

Additional observations from a re-analysis of the deposited data

How the results depend on the processing

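Of 247 values of the counts, nucleolar medians and MYC changes under other settings, 211 were kept, 2 MYC calls were lost, 34 moved and 0 reversed. A MYC change was kept if its direction and call were, whatever its size. A count was kept if close in ratio to the main count, and a median if within 0.135 of the main value. Of 3138 values of other single genes and summaries, 22 calls were lost, 91 were gained and 0 reversed; the causes were not tested. MXD4 was the 1 member called higher in the SNAI1 line relative to the control line with the authors' matrix, with no background correction, with trend and robust, with the array set as a block, within array set 1 and against time-matched control arrays. Members called lower in the LEF1 line relative to the control line numbered 2 with the authors' matrix, no background correction, an offset of 50, trend and robust, and the array set as a block, 0 with the mean of all kept probes (MYC -1.07, adjusted p = 0.165) and 11 against time-matched control arrays. No 0 h baseline enters that setting. All LEF1 arrays are in set 2 and the control line's 24 and 72 h arrays are in set 1. Line and array set therefore cannot be told apart in its LEF1 values. It called 1910 genes in the LEF1 line and 3929 in the SNAI1 line, with 13 members lower and a nucleolar median of -0.38 in the SNAI1 line. The LEF1 nucleolar median was -0.37 relative to the control line with the array set as a block, and -0.42 against 0 h with the authors' matrix and with no background correction. Against 0 h the LEF1 line had 1063 genes called with the array set as a block and 259, with 2 members, within array set 2, which has fewer arrays. Within array set 1 the SNAI1 nucleolar median was -0.34, and 4319 genes were called against 0 h. With 24 and 48 h alone, the SNAI1 line had 357 genes and 1 member (RRP9) called relative to the control line, with MYC at -0.77 (adjusted p = 0.119), and 992 genes, 2 members lower and a nucleolar median of -0.29 against 0 h. With 72 and 96 h alone these were 1775 genes and 7 members, and against 0 h 4098 genes and a median of -0.80. Where the array left out below was the only 1 of its line and time, that time dropped out of every line compared. Leaving out 1 array gave, in the SNAI1 line relative to the control line, 646 to 1919 genes, 2 to 11 members lower, 0 to 1 higher, a nucleolar median of -0.70 to -0.34 and MYC at -1.54 to -1.02. In the LEF1 line these were 24 to 357 genes, 0 to 5 members lower, -0.78 to -0.18 and -1.49 to -0.78. Against 0 h the SNAI1 line had 1352 to 3641 genes, 5 to 19 members lower, 0 to 1 higher, -0.67 to -0.40 and -1.62 to -1.19, and the LEF1 line 322 to 1211 genes, 2 to 12 members lower, -0.56 to -0.41 and -1.47 to -1.20. With the replicate block, although the numbers do not pair the arrays, 4 members were lower in the SNAI1 line relative to the control line (MYC -1.28, adjusted p = 0.00141) and 1 in the LEF1 line (MYC -1.14, adjusted p = 0.0305); against 0 h 17 and 10 were lower. Depth cannot be given for arrays; POLR1B, UTP20 and RRP9 lie near background.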
